A study of Mus musculus with 12 samples.

Results

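Interferon response genes are the genes that cells switch on when an interferon binds its receptor, and 43 of them were followed here in bone marrow with and without the transcription factor E4bp4 (also called Nfil3). They were taken by symbol from a list of known interferon-induced genes, and each was read from the brightest transcript cluster annotated to that 1 gene; 37 of the 43 had one, out of 19937 genes with such a transcript cluster in the whole table. Isg15, Igtp, Irgm2, Ifi47 and Gbp2 lay only on transcript clusters shared with other genes, Ifi44 was not analysed here, and these 6 genes have no value below. All 37 passed the filter on low levels, although Mx2 lay below the 20th percentile of the array on 10 of 12 arrays and Ifit3 on 1.

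The study measured total RNA from hindleg marrow on 12 one-colour Affymetrix Mouse Gene 1.0 ST arrays, 6 from E4bp4-/- mice and 6 from E4bp4+/+ (wild type) mice, with 6 mice in each genotype per the series' design text. In both genotypes, cells carrying Ter119, GR1, CD11b, B220, CD2 or NK1.1 had been taken out with magnets, which leaves a fraction rich in stem and progenitor cells, and no treatment or infection is named. Strain, age, sex and the deleted part of the gene are not given in the sources used here. All levels below are log2 array signals, so a difference of 1 is a doubling, and the number of arrays limits their precision.

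Type I interferons bind the receptor IFNAR, whose kinases JAK1 and TYK2 phosphorylate STAT2; with IRF9 it is part of the complex ISGF3, which binds the interferon-stimulated response element (ISRE) in the promoters of antiviral genes. Interferon gamma acts on another element, the gamma-activated sequence (GAS), and through the factor IRF1. IRF7 is both a product of the response and a driver of further interferon, and in marrow interferon is known for pushing resting stem cells into division.

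Of the 37 genes, 28 have a promoter window (250 bases before to 50 after the start) in the RefSeq table of build GRCm38.p6. The core of the ISRE, which is GAAA, any 2 bases and GAAA again on either strand (overlapping matches allowed), was present in 13 of the 28 genes (46.4%), against 3.99% of the 27025 genes with a window. Whole windows are printed because their genes were among those that differed most between arrays; capitals mark the ISRE core (TTTC, 2 bases and TTTC where it lies on the other strand), which Ifit1 and Rsad2 have and Irf7 has not in these letters.
Ifit1 (chr19:34640639-34640938, plus strand): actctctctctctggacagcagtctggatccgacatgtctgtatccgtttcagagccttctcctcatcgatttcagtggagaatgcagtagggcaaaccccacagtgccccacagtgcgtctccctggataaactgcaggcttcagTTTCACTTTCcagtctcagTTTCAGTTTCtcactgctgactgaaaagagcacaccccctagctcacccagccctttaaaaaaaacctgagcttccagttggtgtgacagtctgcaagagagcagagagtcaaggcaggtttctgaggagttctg
Rsad2 (chr12:26456403-26456702, minus strand): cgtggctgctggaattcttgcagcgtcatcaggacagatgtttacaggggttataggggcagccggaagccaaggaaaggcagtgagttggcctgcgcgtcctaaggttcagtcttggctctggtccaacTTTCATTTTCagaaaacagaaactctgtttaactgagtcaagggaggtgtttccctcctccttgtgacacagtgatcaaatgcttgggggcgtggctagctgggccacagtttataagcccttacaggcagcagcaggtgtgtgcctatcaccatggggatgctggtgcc
Irf7 (chr7:141266375-141266674, minus strand): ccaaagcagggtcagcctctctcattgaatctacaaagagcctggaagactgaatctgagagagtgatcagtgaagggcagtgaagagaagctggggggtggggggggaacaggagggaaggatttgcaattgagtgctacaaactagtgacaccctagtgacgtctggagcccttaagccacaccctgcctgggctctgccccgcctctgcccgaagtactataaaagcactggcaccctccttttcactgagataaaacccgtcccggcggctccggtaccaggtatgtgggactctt

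Shorter stretches show the same core in further genes, with 10 bases on each side and the position of the whole window in brackets. Capitals mark only the first match of each window. Irgm1, Gbp3 and Ifit3 hold 2 matches. In Irgm1 and Gbp3 these overlap, so part of the later match stands in lower case. Oas3 and Irgm1 were highest on the same array as Ifit1, whereas Gbp3 and Ifit3 were highest on other arrays. Irf1 carried instead a GAS core, TTCNNNGAA, in capitals.
Oas3 (chr5:120777610-120777909, minus strand): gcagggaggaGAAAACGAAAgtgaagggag
Irgm1 (chr11:48871371-48871670, minus strand): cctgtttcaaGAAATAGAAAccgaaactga
Gbp3 (chr3:142559794-142560093, plus strand): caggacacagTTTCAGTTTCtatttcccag
Ifit3 (chr19:34583279-34583578, plus strand): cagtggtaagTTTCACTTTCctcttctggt
Irf1 (chr11:53769764-53770063, plus strand): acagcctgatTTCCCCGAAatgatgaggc
The GAS core, which reads the same on both strands, was in 8 of the 28 genes (28.6%) and in 9.55% of all genes. The E4BP4 sites TTATGTAA and TTACGTAA, searched on both strands, were in 0 of the 28 and in 1.23% of all genes; a match or its lack in such a window is a description of letters and shows no binding. A gene could overlap several motifs: in Bst2 the ISRE and GAS matches shared bases.

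The targeted gene was checked first. Nfil3 lay at 6.34 to 6.92 (median 6.38) in the E4bp4-/- arrays, against 6.94 to 7.66 (median 7.11) in the E4bp4+/+ arrays, and the genotypes did not overlap (two-sided exact permutation p = 0.00216, the smallest that 924 permutations can give). Its adjusted p in the limma fit over 29541 transcript clusters was 0.14. The progenitor genes Kit and Cd34 were bright in every array, with Kit at 11.16 or more in E4bp4-/- and 10.93 or more in E4bp4+/+, and the depleted antigens' genes Klrb1c and Cd2 were dim, at no more than 5.38 in E4bp4-/- and 5.40 in E4bp4+/+. Ly6g, a GR1 gene, was at 4.74 to 6.55 in E4bp4-/- and 4.80 to 5.22 in E4bp4+/+. Ptprc, whose B220 form is the depleted antigen, was bright, at 8.55 to 9.51 in E4bp4-/- and 8.61 to 9.02 in E4bp4+/+. Itgam, which encodes CD11b, was at 6.87 to 8.93 in E4bp4-/- and 6.81 to 7.91 in E4bp4+/+. Knockout replicate 1 stood apart: 11 neutrophil genes averaged 10.04 there, against at most 8.51 on the other knockout arrays and 8.54 on the wild type arrays, and 11 monocyte and macrophage genes averaged 8.47, against at most 7.39 and 7.50.

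Whether loss of E4bp4 changes the interferon response was then asked. None of the 37 genes passed an adjusted p of 0.05 (limma, Benjamini-Hochberg over all transcript clusters), and neither did any other transcript cluster (background 0%). Of the 37, 18 were higher and 19 lower in E4bp4-/-, with a median difference of -0.00083 log2, beside 0.02 over all transcript clusters tested. The share with a higher mean was 55.9% over all transcript clusters; after median centring of the arrays, 10 of the 37 were higher, beside 40.4% of all. Differences, here and below as E4bp4-/- minus E4bp4+/+ ± SE from the limma fit of 6 against 6 arrays, ran from -0.20 to 0.19 log2, and adjusted p-values from 0.244 to 0.996. At an unadjusted p under 0.05 there was 1 gene, Ifit2, lower in E4bp4-/-, which is 1 of 37 where the background is 6.39% for that direction (1889 transcript clusters) and 8.47% for the other (2502). In no gene of the 37 were the arrays of the genotypes apart, where the background is 1.27%. In bulk RNA, fewer cells of a type and less RNA per cell cannot be told apart.

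**Figure D1:**
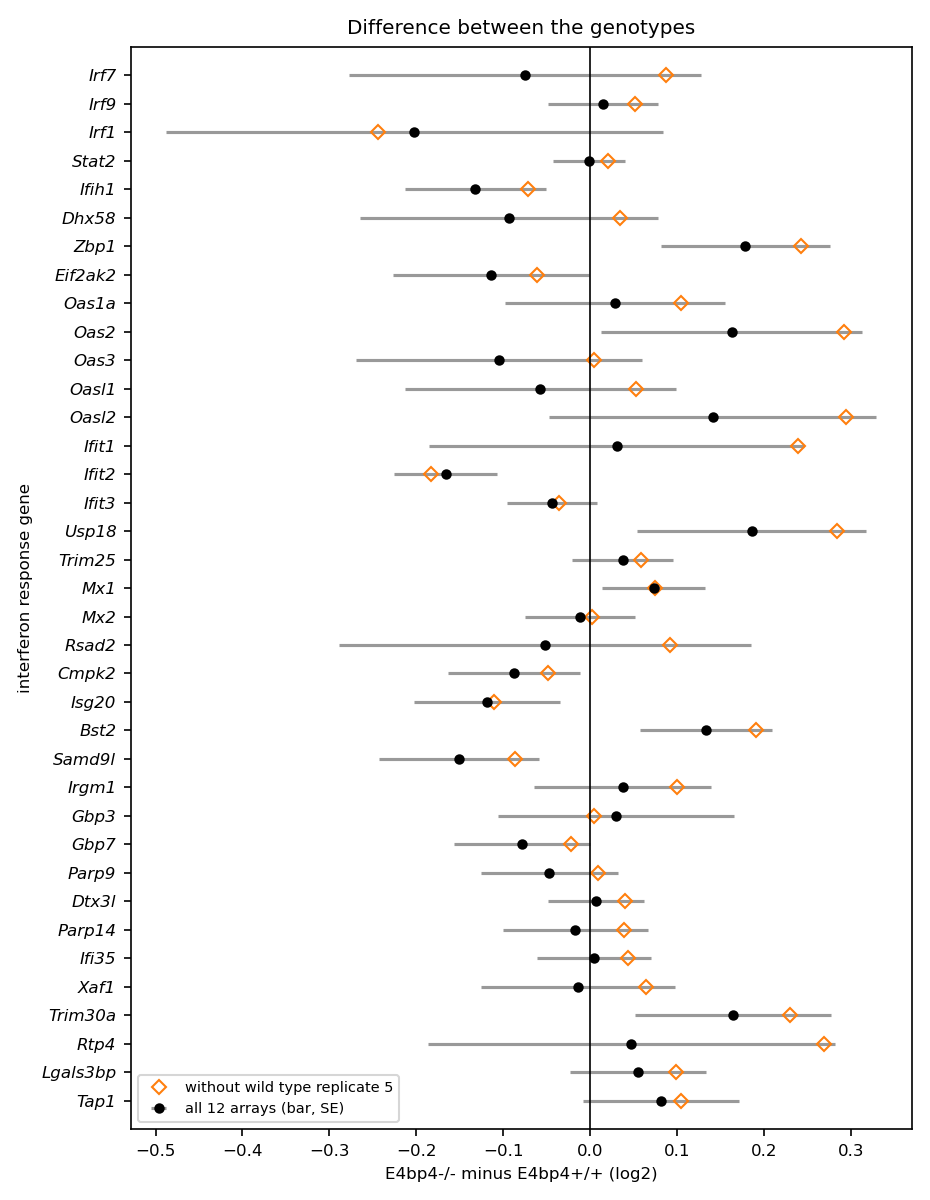
Difference between E4bp4-/- and E4bp4+/+ (x axis, log2) for each of the 37 interferon response genes (y axis), with all 12 arrays (black points, bars the SE) and without wild type replicate 5 (open diamonds). The points lie on both sides of 0, between -0.20 and 0.19. Without that array, which was picked out by its high levels of these genes, 28 of the 37 lie above 0.

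Among the signalling factors, Irf7 lay at 8.75 to 9.61 (median 9.14) in the 6 E4bp4-/- arrays, against 8.75 to 10.06 (median 9.16) in the 6 E4bp4+/+ arrays. The groups overlapped, with 1 wild type array above every other, and the difference was -0.07 ± 0.20 (adjusted p = 0.888). Stat2 and Irf9, which are parts of ISGF3, were even, with differences of -0.00083 ± 0.042 (adjusted p = 0.996) and 0.01 ± 0.063 (adjusted p = 0.932), and no array was more than 0.25 above the mean of the other 5 of its genotype in either gene. Irf1 had the widest spread of the 37 genes, 7.43 to 9.16 (median 7.65) in the 6 E4bp4-/- arrays, against 7.62 to 8.75 (median 8.17) in the 6 E4bp4+/+ arrays, with a difference of -0.20 ± 0.29 (adjusted p = 0.769). A dimmer second transcript cluster of Irf1 differed by 0.13 (adjusted p = 0.323), the other way, so even the sign for Irf1 was not settled.

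The sensors of viral nucleic acid were likewise mixed. Ifih1 (MDA5) and Dhx58 (LGP2) are helicases that bind double-stranded RNA. Dhx58 lay at 8.27 to 8.91 (median 8.33) in the 6 E4bp4-/- arrays, against 8.25 to 9.23 (median 8.52) in the 6 E4bp4+/+ arrays, a difference of -0.09 ± 0.17 (adjusted p = 0.829), and Ifih1 differed by -0.13 ± 0.081 (adjusted p = 0.46). Eif2ak2, the kinase PKR that halts translation, differed by -0.11 ± 0.11 (adjusted p = 0.66). Zbp1, a sensor of Z-form nucleic acid that can start cell death, lay at 6.97 to 7.30 (median 7.08) in the 6 E4bp4-/- arrays, against 6.68 to 7.26 (median 6.93) in the 6 E4bp4+/+ arrays, a difference of 0.18 ± 0.10 (adjusted p = 0.411). The groups overlapped in all 4 genes.

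The OAS enzymes make a messenger that activates RNase L, while Oasl1 and Oasl2 are related proteins. Oas2 lay at 7.12 to 7.64 (median 7.31) in the 6 E4bp4-/- arrays, against 6.70 to 7.81 (median 7.12) in the 6 E4bp4+/+ arrays, and differed by 0.16 ± 0.15 (adjusted p = 0.63). Oasl2 differed by 0.14 ± 0.19 (adjusted p = 0.753), Oas1a by 0.03 ± 0.13 (adjusted p = 0.934), Oasl1 by -0.06 ± 0.16 (adjusted p = 0.89) and Oas3 by -0.10 ± 0.16 (adjusted p = 0.794). Thus 3 were higher and 2 lower, none past the test.

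The IFIT proteins bind foreign RNA and block its translation. Ifit2, the gene of lowest p, lay at 7.37 to 7.71 (median 7.44) in the 6 E4bp4-/- arrays, against 7.56 to 7.77 (median 7.64) in the 6 E4bp4+/+ arrays. Knockout replicate 6 was the 1 knockout array inside the wild type range, and the difference was -0.17 ± 0.059 (adjusted p = 0.244). Means were 7.48 ± 0.12 in E4bp4-/- and 7.65 ± 0.08 in E4bp4+/+ (SD, n = 6 each). Ifit1 lay at 6.34 to 7.07 (median 6.75) in the 6 E4bp4-/- arrays, against 6.27 to 7.73 (median 6.5) in the 6 E4bp4+/+ arrays, with 1 wild type array far above the rest, and differed by 0.03 ± 0.22 (adjusted p = 0.962). Ifit3 lay near the floor of the arrays at 4.91 to 5.14 in E4bp4-/- and 4.95 to 5.19 in E4bp4+/+, where a difference can be understated. In the ISG15 system, Usp18, the protease that takes ISG15 off its targets and damps the receptor, lay at 8.96 to 9.51 (median 9.12) in the 6 E4bp4-/- arrays, against 8.75 to 9.49 (median 8.88) in the 6 E4bp4+/+ arrays. Its difference was the highest of the 37, 0.19 ± 0.13 (adjusted p = 0.524), with means of 9.18 ± 0.22 in E4bp4-/- and 8.99 ± 0.28 in E4bp4+/+ (SD, n = 6 each) and groups that overlapped. Trim25, a ubiquitin ligase of RNA sensing, differed by 0.04 ± 0.058 (adjusted p = 0.789).

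Factors that act on the virus itself gave 2 higher and 5 lower means. Bst2 (tetherin), which holds budding virus on the cell, averaged 8.60 ± 0.11 in E4bp4-/- and 8.47 ± 0.16 in E4bp4+/+ (SD, n = 6 each), a difference of 0.13 ± 0.076 (adjusted p = 0.428). Samd9l, a restriction factor of poxviruses, differed by -0.15 ± 0.092 (adjusted p = 0.457). Rsad2 (viperin), which makes a chain-terminating nucleotide, lay at 7.82 to 8.91 (median 8.19) in the 6 E4bp4-/- arrays, against 7.68 to 9.05 (median 8.29) in the 6 E4bp4+/+ arrays, and differed by -0.05 ± 0.24 (adjusted p = 0.938); both groups held low and high arrays. Cmpk2, the nucleotide kinase encoded beside it, differed by -0.09 ± 0.076 (adjusted p = 0.607). Isg20, an exonuclease, differed by -0.12 ± 0.084 (adjusted p = 0.522). Mx1, at 5.69 to 5.89 in E4bp4-/- and 5.57 to 5.90 in E4bp4+/+, and Mx2, at 4.69 to 4.99 in E4bp4-/- and 4.71 to 5.0 in E4bp4+/+, were both dim and differed by 0.07 ± 0.059 (adjusted p = 0.578) and -0.01 ± 0.063 (adjusted p = 0.947); these antiviral GTPases are defective in many inbred mouse strains.

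The GTPases Irgm1, Gbp3 and Gbp7, which act on membranes around intracellular pathogens, differed by 0.04 ± 0.10, 0.03 ± 0.14 and -0.08 ± 0.078 log2. Parp9 and its partner Dtx3l, an ADP-ribosyltransferase and ubiquitin ligase pair, differed by -0.05 ± 0.079 and 0.01 ± 0.055, and Parp14 by -0.02 ± 0.083. Of the remaining 6, Trim30a was at 0.16 ± 0.11, Tap1, the peptide transporter of MHC class I, at 0.08 ± 0.090, Lgals3bp at 0.06 ± 0.078, Rtp4 at 0.05 ± 0.23, Ifi35 at 0.0047 ± 0.066 and Xaf1 at -0.01 ± 0.11. Limma adjusted p-values of these 12 genes lay between 0.509 and 0.983. Several of the families hold near copies (Oas, Oasl, Ifit, Gbp, Irgm, Trim30), and probes shared between copies cannot be told apart in these values.

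The levels differed between mice of the same genotype, and 1 wild type array held most of the highest values. On wild type replicate 5, 24 of the 37 genes had their highest level of all 12 arrays (64.9%), against 5.87% of all transcript clusters tested. On that array 23 of the 37 lay at least 0.25 log2 above the mean of the other 5 wild type arrays, against 6.43% of all, and the median excess of the 37 was 0.34 log2, beside 0.00071 over all transcript clusters. Since this array was picked out by these values, no test is given. No gene had its lowest level there, whereas wild type replicate 3 held the lowest level of 10 genes and knockout replicate 3 of 8.

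**Figure D2:**
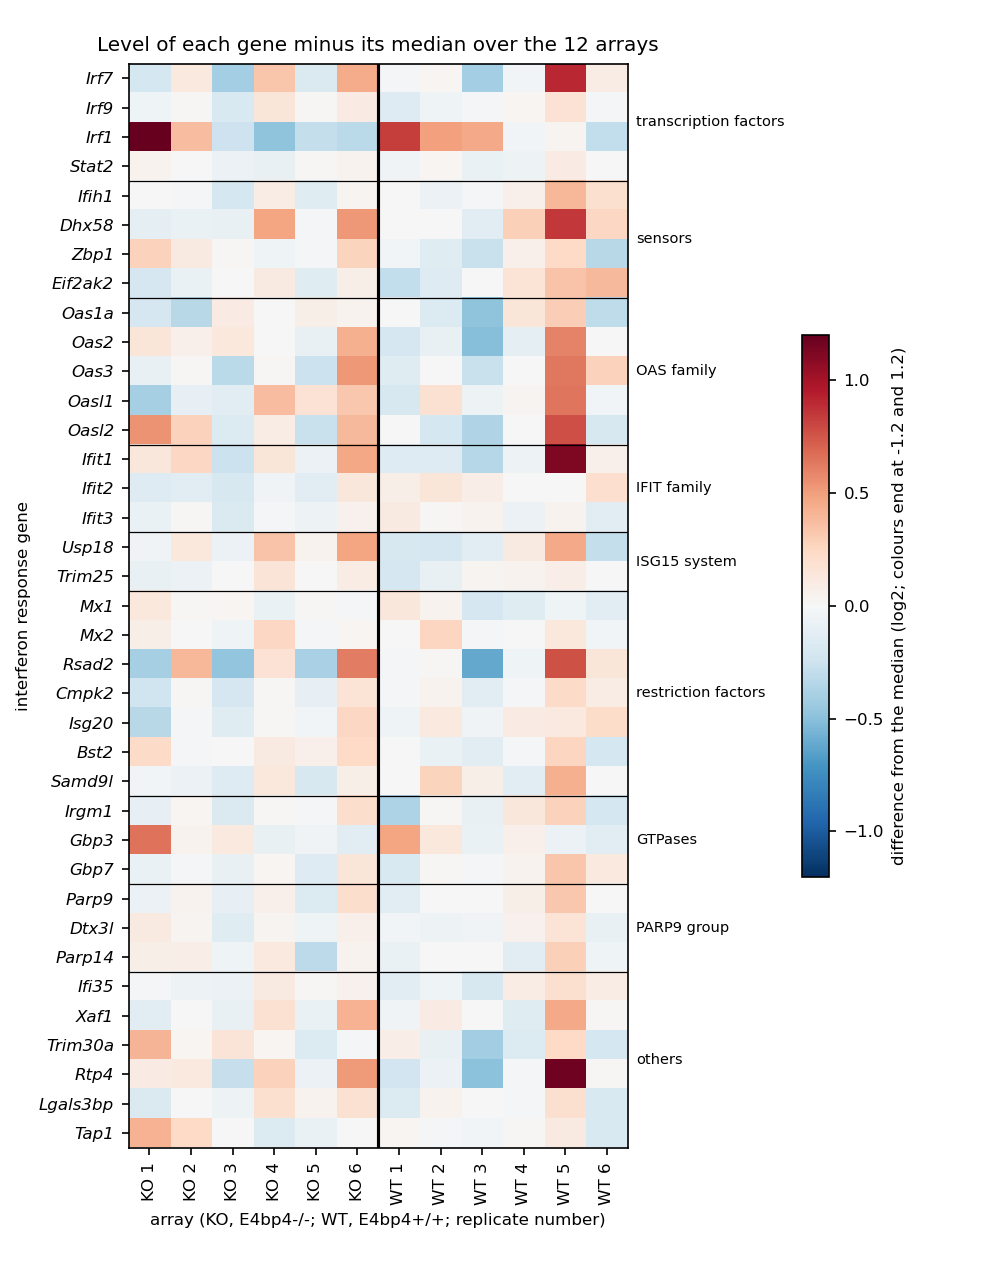
Level of each of the 37 genes (rows, grouped by role) minus its own median over the 12 arrays (log2, colour), with the 6 E4bp4-/- arrays left of the 6 E4bp4+/+ arrays. The column of wild type replicate 5 is red in most rows, that of knockout replicate 6 is a paler red, and Irf1 and Gbp3 are red in both arrays numbered 1.

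The highest excess was that of Rtp4, a receptor-transporting protein, at 8.64 on wild type replicate 5, against 6.97 to 7.48 on the other wild type arrays. Ifit1 was at 7.73 on wild type replicate 5, against 6.27 to 6.67 on the other wild type arrays, and Irf7 at 10.06 on wild type replicate 5, against 8.75 to 9.25 on the other wild type arrays. These 3 genes exceeded the mean of the other wild type arrays by 1.33, 1.25 and 0.97 log2, and their wild type arrays without replicate 5 lay inside the knockout range or below it. All 5 genes of the OAS group had their highest level on this array, by 0.92 (Oasl2), 0.78 (Oas2), 0.66 (Oasl1), 0.66 (Oas3) and 0.45 (Oas1a) above the mean of the other 5. Rsad2 exceeded it by 0.86, Dhx58 by 0.77, Usp18 by 0.59 and Xaf1, an antagonist of the apoptosis inhibitor XIAP, by 0.47. Smaller excesses were seen for all 3 genes of the Parp9 group (0.20 to 0.34) and for Irgm1 (0.38) and Gbp7 (0.34).

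Not all of the 37 were high on that array. Ifit2 was -0.10 log2 from the mean of the other wild type arrays on replicate 5, Gbp3 -0.16 and Irf1 -0.25, all 3 below it. The dim genes Ifit3, Mx1 and Mx2 were within 0.09 of it, and the bright Isg20 at 0.05. The dimmer second transcript cluster of Irf1 was at 6.64 on this array, the highest of the wild type arrays. Of the 28 genes with a promoter window, those with an ISRE core had a median excess of 0.37 log2 on this array and reached 0.25 in 10 of 13, and those without one had a median of 0.23 and reached it in 6 of 15. For the GAS core the median was 0.28 with it (4 of 8 genes reached 0.25) and 0.37 without it (12 of 20). Irf7, Oasl1, Oasl2 and Xaf1 were among the genes high on this array whose window lacked both cores. Genes without a window lay outside these splits, with excesses from 0.01 (Mx1) to 1.33 (Rtp4). The splits are a description, since the array was picked out by these values and the genes are not independent replicates. Whether either core had a part in the excess was not tested.

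**Figure D3:**
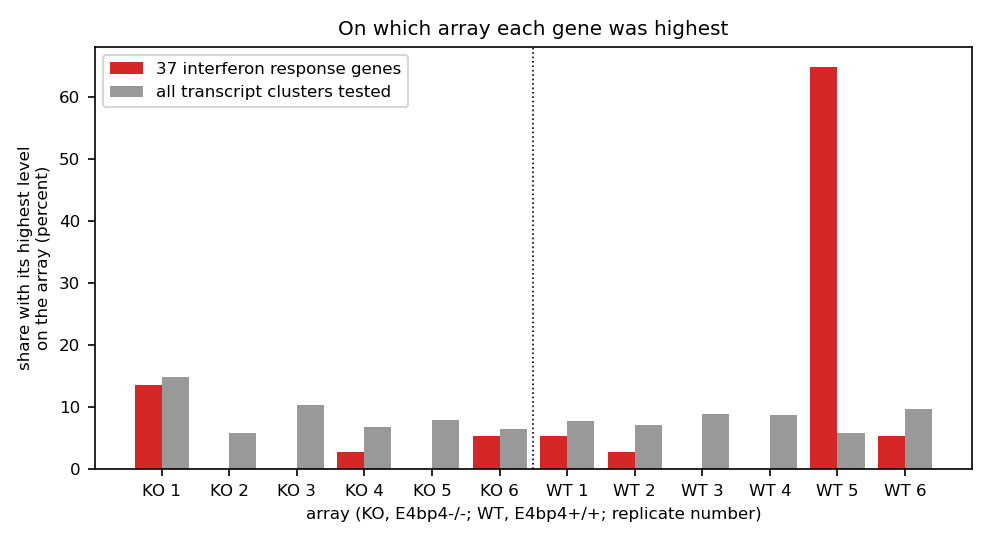
Share of genes (y axis, percent) that had their highest level on each of the 12 arrays (x axis), for the 37 interferon response genes (red) and for all 29541 transcript clusters tested (grey). Wild type replicate 5 holds 64.9% of the 37 genes and 5.87% of all, while knockout replicate 1 holds 13.5% and 14.8%.

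Some of the 37 genes were also high on 1 knockout array. On knockout replicate 6, 16 of the 37 genes lay at least 0.25 log2 above the mean of the other 5 knockout arrays, against 6.99% of all transcript clusters, and 2, Usp18 and Isg20, had their highest level of all 12 arrays there (background 6.42%). The median excess was 0.19. Rsad2 was at 8.91 there, 0.76 above that mean, Oas3 0.65 above it and Irf7 0.52. Across the 37 genes, the excess on knockout replicate 6 and that on wild type replicate 5 had a Pearson correlation of 0.74 and a Spearman correlation of 0.71. This is a description, since the genes are not independent replicates and both arrays were picked out by these values. Knockout replicate 4 was next among the knockout arrays, with a median excess of 0.07.

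**Figure D4:**
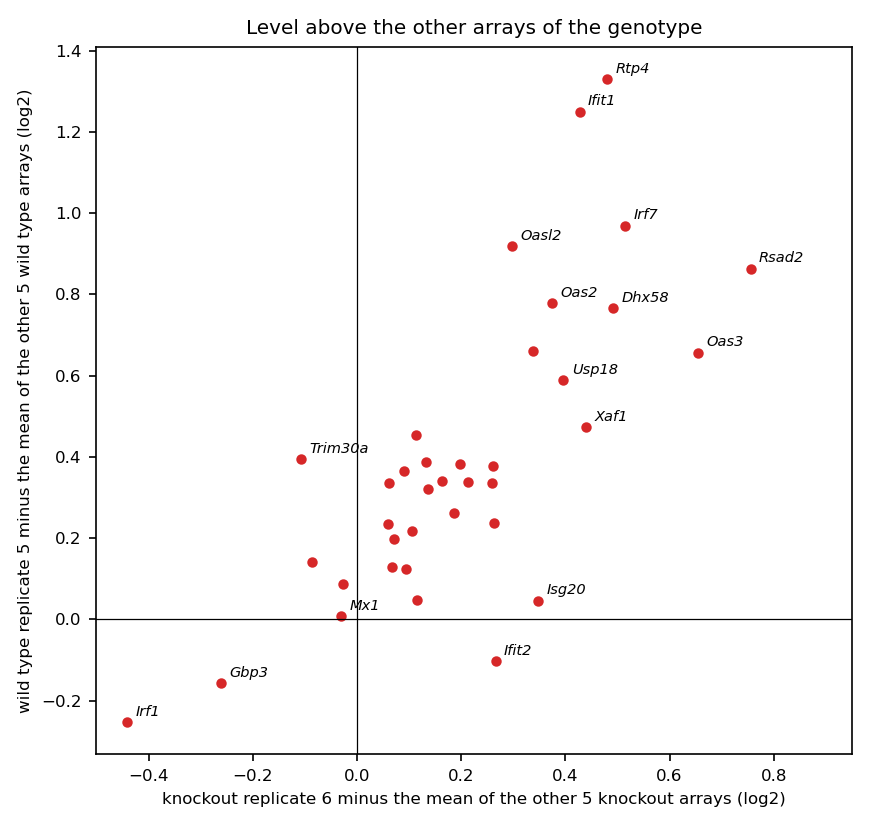
Each point is 1 of the 37 genes: its level on knockout replicate 6 minus the mean of the other 5 knockout arrays (x axis, log2) against its level on wild type replicate 5 minus the mean of the other 5 wild type arrays (y axis, log2). Rtp4, Ifit1, Irf7, Rsad2 and Oas3 are high on both axes, and Irf1 and Gbp3 are below 0 on both.

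A second pattern was seen in a few genes on the arrays numbered 1. Irf1 was at 9.16 on knockout replicate 1 and 8.75 on wild type replicate 1, the highest of each genotype; the other knockout arrays reached 8.29 and the other wild type arrays 8.41. Gbp3 was at 8.17 on knockout replicate 1 and 8.0 on wild type replicate 1, with the others at up to 7.65 in E4bp4-/- and 7.65 in E4bp4+/+. Trim30a (10.48), Tap1 (10.56) and Zbp1 (7.30) were also highest on knockout replicate 1. Among the wild type arrays they were highest on replicate 5 (10.31, 10.25 and 7.26), not on replicate 1. Their excesses on wild type replicate 5 were 0.39, 0.14 and 0.38. The 5 genes highest on knockout replicate 1 are 13.5% of the 37, near the 14.8% of all transcript clusters that were highest on that array. Of the 37, 5 lay 0.25 or more above the mean of the other knockout arrays (background 10.3%), namely Irf1, Gbp3, Tap1, Trim30a and, in place of Zbp1, Oasl2. Neutrophil and monocyte genes were high on knockout replicate 1 too. On wild type replicate 1 the 11 monocyte and macrophage genes averaged 7.50, the highest of the wild type arrays. The 11 neutrophil genes averaged 8.24 there, inside the wild type range. The part of these cells in the levels above was not tested.

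**Figure D5:**
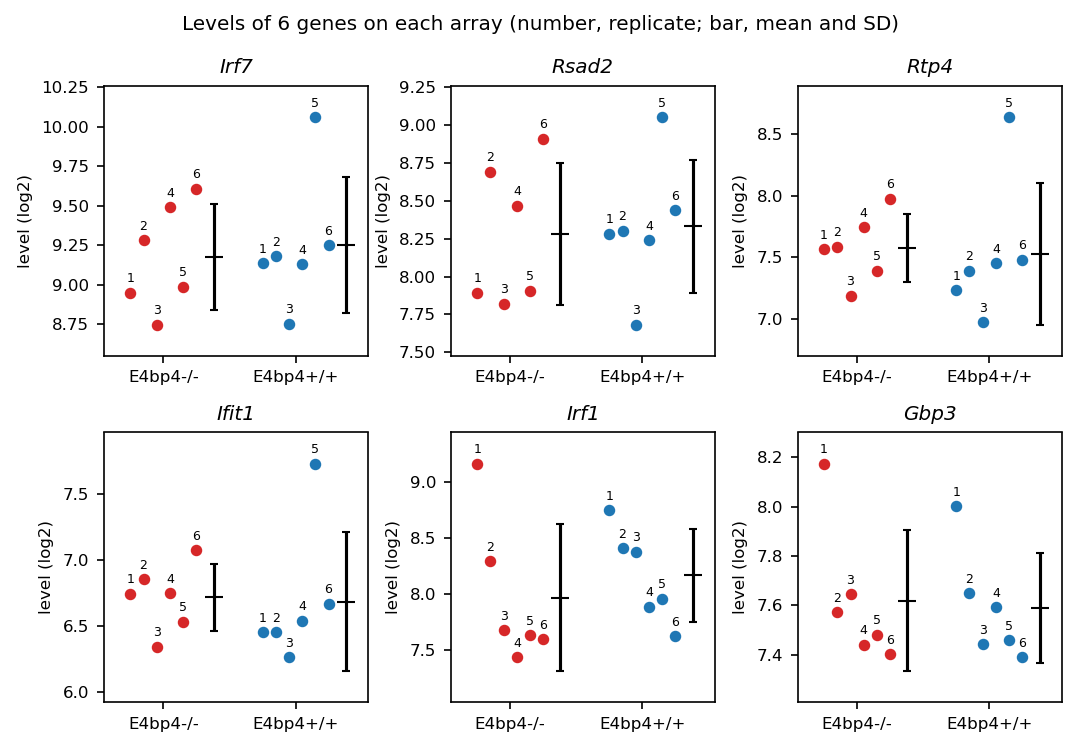
Levels (y axis, log2) of 6 genes on the 6 E4bp4-/- arrays (red, left) and the 6 E4bp4+/+ arrays (blue, right), each point numbered by its replicate, with the mean and SD as a bar. Irf7, Rsad2, Rtp4 and Ifit1 are highest on wild type replicate 5 and, among knockout arrays, on replicate 6; Irf1 and Gbp3 are highest on the arrays numbered 1.

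The genotypes were compared again with wild type replicate 5 left out. That array was picked out by its high levels of these genes, so leaving it out lowers most of their wild type means. Knockout replicate 6 was kept. The shifts below follow from that choice and add no support for a difference between the genotypes. Without wild type replicate 5, 28 of the 37 genes had a higher mean in E4bp4-/- (56% of all transcript clusters) in place of 18, and 10 genes turned sign, among them Irf7 (0.09), Dhx58 (0.03) and Rsad2 (0.09). The median difference was then 0.05 log2, beside 0.02 over all transcript clusters. At an unadjusted p under 0.05, Bst2 (0.19 ± 0.061), Oas2 (0.29 ± 0.10), Zbp1 (0.24 ± 0.087) and Usp18 (0.28 ± 0.11) were higher and Ifit2 (-0.18 ± 0.062) lower. These were 4 of 37 higher and 1 lower, where the background was 8.6% and 6.73%, and 0 genes passed the adjusted threshold in limma, with a smallest adjusted p of 0.203. The spread moved as well. The SD was larger in E4bp4+/+ than in E4bp4-/- for 25 of the 37 genes with all arrays and for 12 without that array. The median SD was 0.15 log2 in E4bp4-/-, 0.20 in E4bp4+/+ and 0.14 in E4bp4+/+ without it. This fall, too, follows from leaving out the array with most of the highest values while all knockout arrays were kept.

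Genes of the pathway outside the 43 were read from lists of their own. Of 126 further genes, 105 had a transcript cluster and 101 were tested, of which 0 passed the adjusted threshold in limma. At an unadjusted p under 0.05 in limma, 5 of the 101 were higher and 3 lower in E4bp4-/-. The background over all transcript clusters is 8.47% and 6.39%. None of 10 ligand genes was 0.25 or more above the others on wild type replicate 5, with Ifnb1 at 5.13 and Ifng at 6.31 there. Both were within the range of the other wild type arrays. On wild type replicate 5, 2 of the 10 had their highest level of all 12 arrays (background 5.87%). They were Ifne at 6.25, beside 6.24 on wild type replicate 2, and Ifna11 at 4.24. Their excesses were 0.21 and 0.12. Only 8 of the 10 passed the filter on low levels, which Ifna11 and Ifnk did not. Ifnb1, at 5.08 to 5.36 on the other wild type arrays, lay near the floor, where an excess can be understated. None of 9 receptor and kinase genes, of 13 factors and regulators or of 9 genes of MHC class I presentation reached that excess, and 1 of 12 sensing genes did, Ddx58 (RIG-I), at 8.81 on wild type replicate 5, against 8.0 to 8.36 on the other wild type arrays. Of 52 other interferon-induced genes 16 reached it (6.43% of all transcript clusters did), among them, chosen after their values were seen, Ddx60 (0.58), Parp12 (0.47), Helz2 (0.43), Adar, which edits double-stranded RNA (0.38), Herc6, an ISG15 ligase (0.35), and Uba7, the ISG15-activating enzyme (0.33).

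Between the genotypes, the lowest p-values in these lists belonged to Ifi205, a member of the interferon-inducible p200 family, and Irf2, an antagonist of IRF1. Ifi205 lay at 5.35 to 6.55 (median 5.54) in the 6 E4bp4-/- arrays, against 6.40 to 7.69 (median 6.73) in the 6 E4bp4+/+ arrays, a difference of -1.09 ± 0.25 (adjusted p = 0.16); knockout replicate 2 was inside the wild type range. Irf2 lay at 9.74 to 9.91 (median 9.85) in the 6 E4bp4-/- arrays, against 9.90 to 10.09 (median 10.02) in the 6 E4bp4+/+ arrays, a difference of -0.16 ± 0.045 (adjusted p = 0.189). Oas1c differed by -0.23 ± 0.073 (adjusted p = 0.219) and Nlrc5, the transactivator of MHC class I genes, by 0.19 ± 0.064 (adjusted p = 0.225). Higher in E4bp4-/- at an unadjusted p under 0.05 were also the interferons Ifna5 at 0.13 ± 0.049 and Ifna4 at 0.11 ± 0.049, the lymphoid factor Irf4 at 0.28 ± 0.11 and Trim14 at 0.20 ± 0.087 (an adaptor of RNA sensing), with limma adjusted p-values of 0.275, 0.285, 0.313 and 0.323 for Ifna5, Irf4, Ifna4 and Trim14. Ifna4 lay near the floor of the arrays, at 5.06 to 5.24 in E4bp4-/- and 4.99 to 5.22 in E4bp4+/+, where a difference can be understated. On knockout replicate 1, 41 of the 105 genes had their highest level (background 14.8%), among them 7 of 9 genes of MHC class I presentation, 6 of 9 receptors and kinases and 7 of 12 sensing genes. Neutrophil and monocyte genes were also high on that array, as given above, and their part was not tested.

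Marker genes of other cell types were read on the same arrays. Between the genotypes, 0 of them passed the adjusted threshold in limma. At an unadjusted p under 0.05, 5 of 8 progenitor, 6 of 9 B and plasma cell, 3 of 6 megakaryocyte and 2 of 8 NK and T cell genes were higher in E4bp4-/- (background 8.47%). Lower were 1 gene each of the plasmacytoid dendritic, NK and T, and stromal lists (background 6.39%). The part of these cells in the interferon genes was not tested. On wild type replicate 5, the 11 neutrophil genes averaged 7.33 and the 11 monocyte and macrophage genes 6.92, the lowest means of the 6 wild type arrays, whose highest were 8.54 and 7.50. The 10 plasmacytoid dendritic cell genes, cells known for making interferon and a list that holds Bst2, averaged 7.39 there, inside the wild type range of 7.26 to 7.74. Within that list Bst2 and Pacsin1 had their highest level of all 12 arrays there, 0.34 and 0.24 above the other wild type arrays, while Siglech had its lowest, at -0.47 from them. The 8 stromal and endothelial genes had their highest mean there, 8.53. It was at most 8.40 in E4bp4-/- and 8.46 on the other wild type arrays. Of the 8, Col1a1 (0.55), Col1a2 (0.64) and Alpl (0.72) lay 0.25 or more above the other wild type arrays (background 6.43%). Cxcl12 (-0.07), Lepr (0.03) and the endothelial genes Pecam1 (-0.29), Cdh5 (-0.20) and Kdr (0.02) did not, and the median of the 8 was 0.02. Of 6 megakaryocyte genes, 2 reached that excess, and the part of the cells of both lists in the interferon genes was not tested. On knockout replicate 6 the neutrophil genes averaged 8.36 and the plasmacytoid dendritic cell genes 7.53, both inside the range of the other knockout arrays. The erythroid genes averaged 11.05 there, against at most 10.96 on the other knockout arrays, and 2 of 5 erythroid and 2 of 6 megakaryocyte genes lay 0.25 or more above those arrays (background 6.99%); their part in the interferon genes was not tested.

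Some of the 37 genes varied together over the 12 arrays. Correlation with the median profile of the other genes, given as a description over 12 arrays that share 2 genotypes, was 0.97 for Irf7, 0.95 for Rtp4 and 0.92 for Parp9. Without wild type replicate 5 it was 0.94, 0.86 and 0.83. It exceeded 0.5 for 26 of the 37 genes with all arrays and for 20 without that array, and it was below 0 for Irf1 (-0.29), Gbp3 (-0.37) and Mx1 (-0.13). Outside the 43, the 6 genes of 17770 whose profile was most like the median of the 37 were Trp63 (0.87), Ifitm3 (0.87), Rab42 (0.86), Adar (0.85), Thbs2 (0.84) and Ifi27 (0.83), of which Ifitm3, Adar and Ifi27 are interferon-induced genes of the lists; without wild type replicate 5 their correlations lay between 0.58 and 0.82.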

How the data were processed

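Lineage-depleted marrow RNA from 6 E4bp4-/- and 6 E4bp4+/+ mice was hybridised to 12 arrays. The deposited values are log2 signals per transcript cluster, which the authors made with GeneSpring GX 11 and its RMA16 option, as the series' design text records; scanner files were not used here, and scan dates and slides are not given in the sources used here. The design text also names a 20th to 100th percentile filter and a moderated test, and these were followed: 29541 of 34760 transcript clusters reached the 20th percentile of an array on at least 1 array.

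The genotypes were compared with limma 3.58.1 (lmFit and eBayes, R 4.3.3) on those log2 values, and p-values were adjusted by Benjamini-Hochberg over all 29541. The code was tested on simulated data. The groups come from the genotype in the labels. Gene names come from the platform annotation: 21640 transcript clusters name 1 gene, 1321 several and 11799 none. Each gene was read from its brightest 1-gene transcript cluster. The text names every member, Nfil3, up to 4 genes of lowest p in each other list, and the 6 non-members most correlated with the members' median profile; others are said to be chosen after their values were seen, and cell type markers come from lists of their own. The members, the gene lists and the tests were chosen with earlier results of these data known.

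The excess of an array is its log2 level minus the mean of the other 5 arrays of its genotype, and 0.25 was the size counted. No scan batch could be tested. Replicate numbers are shared between the genotypes, and the labels do not say whether they pair the mice. Deviations from the group means correlated between same-numbered arrays by -0.03 to 0.46, above 0.1 for 3 of 6 numbers. The main fit did not pair the arrays by number. Alternatives were other filters, normalisations, weights, a mean-variance trend, a replicate block, the mean of a gene's transcript clusters, and leaving out arrays. Promoter windows are RefSeq's, build GRCm38.p6.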

Additional observations from a re-analysis of the deposited data

Results flagged for a closer look

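Within the 6 arrays of a genotype, 5 of 74 sets of levels (37 genes in each genotype) had 1 array far from the other 5, by Dixon's ratio of the gap to the range past its critical value; chance gives about 1 in 20 sets, and genes that vary together are not separate sets. These are the values by which wild type replicate 5 was picked out, so they describe it and add no support. Knockout replicate 1 stood apart for Gbp3, at 8.17 log2. Wild type replicate 5 stood apart for the other 4 sets. Ifit1 was at 7.73 there, Rtp4 at 8.64, Oasl2 at 9.39 and Parp14 at 8.24. In all 5 cases the array was the highest of its genotype.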

How the results depend on the processing

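No gene of the 37 passed the adjusted threshold in limma under any of the 22 alternatives. Over all transcript clusters the count past it was 5 with array weights and 0 to 4 when single arrays were left out (4 without knockout replicate 1, 1 without knockout replicate 2 and 1 without wild type replicate 2), against 0 in the main setting. Genes of the 37 at an unadjusted p under 0.05 in limma numbered 2 with the replicate block, against 1 in the main setting. They numbered 5 without knockout replicate 1 and wild type replicate 5 together, which was chosen after seeing the data. Leaving out single arrays gave 1 to 5 (5 without wild type replicate 5, 2 without knockout replicate 6 and 2 without wild type replicate 4). Of all transcript clusters, 14.9% were under that p in the main setting and 17.4% with the replicate block. The share was 14.7% without knockout replicate 1 and wild type replicate 5 together and 15.3% without wild type replicate 5. It was 14.9% without knockout replicate 6 and 12.6% without wild type replicate 4. The replicate block changed no adjusted call, and 3 of 6 pairs of arrays correlated best with their own number. Higher in E4bp4-/- were 10 of the 37 after median centring, which shifted the median of all differences to -0.03, and 12 to 28 when single arrays were left out (28 without wild type replicate 5), against 18. The sign held under every alternative run for 18 of the 37 genes, Irf1 among them, though its second transcript cluster had the other sign. The Nfil3 difference lay between -0.77 and -0.56, with no adjusted p past the threshold. The causes were not tested. The 50th percentile filter left 34 of the 37 genes. Wild type replicate 5 was the highest array for 24 to 25 genes under quantile normalisation, median centring and the mean of a gene's transcript clusters. Dim genes (Mx1, Mx2, Ifit3) lie near the floor of the arrays.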
